A study of Mus musculus with 2 samples.

Results

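The members described here are 9488 splice junctions of the mouse ovary that span at most 100 bases and carry the value 1 for a flag named A. They were chosen by 2 properties in the deposited junction table, the flag in the junction's name and the length, which is its end minus its start. The table holds 438382 junctions, of which 158708 carry the flag, so the members are 5.98% of the flagged junctions. A junction here is a gap inside a sequencing read: the read matches the genome on both sides and skips the stretch between. No source states what A marks, or what a further flag, C, marks, so both are used by name only. The members spanned 33 to 100 bases, so the name "very short" describes them by the rule alone.

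The RNA came from whole ovaries of C57BL/6J female mice aged 8 weeks, described as littermates, with no allele, transgene or agent named. The 2 libraries, biological replicates 1 and 2 by label although both cite 1 donor record, were made from polyadenylated RNA and sequenced with strand kept. Replicate 1 had 41124064 estimated gene counts in all, and replicate 2 had 34930872. All 8 ovary markers looked up (the oocyte genes Gdf9, Bmp15 and Zp3, the granulosa genes Foxl2, Amh and Fshr, the theca gene Cyp17a1 and the steroidogenic gene Star) were detected in both, with 389 to 12727 counts. The junction table is 1 table for the series. Each junction name holds 2 whole numbers, R1 and R2, called here the first and the second read number, and their sum was the read count in every junction. No source ties them to the replicates, so they are given as 2 values per junction and never as named replicates. There is 1 group, so no comparison of conditions was possible. In whole tissue, fewer cells of a type and less RNA per cell cannot be told apart.

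As background, most gaps in reads of messenger RNA are introns, which the spliceosome removes by pairing a 5′ splice site (the donor) with a branch point and a 3′ splice site (the acceptor). The spliceosome needs room to bind all of these signals, so an intron cannot be arbitrarily short. In mammals most introns are long and their exons are recognised first, while very short introns are often recognised as a unit across the intron itself. Compact, highly expressed housekeeping genes tend to hold many short introns. When an acceptor has a second acceptor just beside it, the same intron can be removed in slightly different lengths, and a difference that is a multiple of the codon length keeps the reading frame.

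Few members lay at the short end of the range. The median length was 86 bases, with quartiles at 80 and 92. Members under 65 bases numbered 18 of 9488. From 65 bases on the counts climbed, with 11 members of 65 bases, 75 of 70 bases, 177 of 75 bases and 395 of 80 bases. The most frequent length was 88 bases with 446 members, and 4483 members lay between 80 and 90 bases. At the limit the counts were falling slowly, with 258 members of 100 bases and 254 flagged junctions 1 base longer. The limit therefore cuts through a continuous range: the median was 61 reads in the former and 75 in the latter. The deepest member of 100 bases had 16994 reads and lies on chromosome 18, whose junctions are counted but not listed singly; the next had 3051, 2745 and 1963 reads, on chromosomes 6, 12 and 14. The deepest flagged junctions 1 base over the limit had 13520, 6406 and 4731 reads, on chromosomes 10, 10 and 4.

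**Figure D1:**
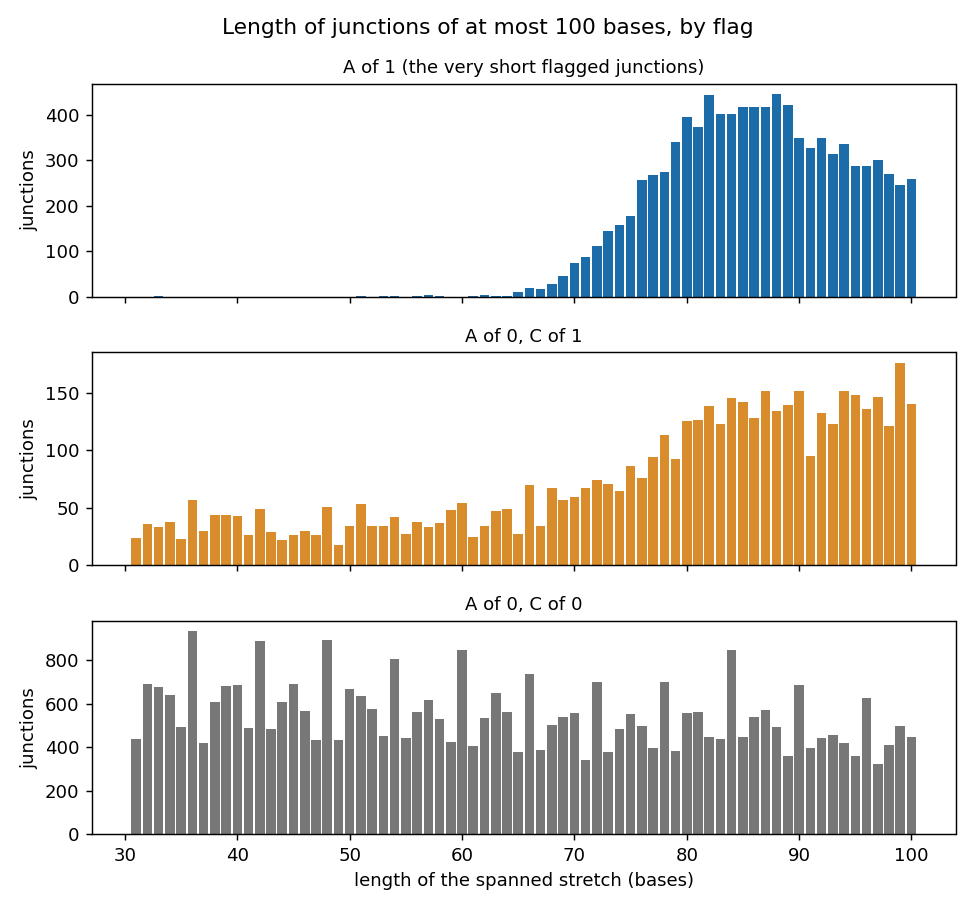
Number of junctions (vertical axis) at each length from 31 to 100 bases (horizontal axis), in 3 panels by the flags A and C. Flagged junctions are nearly absent under 65 bases and reach 446 at 88 bases, whereas junctions with A of 0 and C of 0 are spread over all lengths.

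Junctions of the same lengths without the flag looked different. There were 43487 of them, so the members were 17.9% of all junctions of at most 100 bases, yet the members held 96.1% of the reads. An unflagged short junction had a median of 1 read, and 65.8% had a single read, against 4.85% of the members. Both read numbers were above 0 in 10.6% of them and in 90.3% of the members. Their lengths reached down to 31 bases, and 21699 were under 65 bases. The flag C was 0 in 88.1% of the unflagged short junctions and in 23 of the 9488 members (0.242%). The 5160 unflagged junctions with C of 1 lay between both sets in length, with a median of 82 bases, but 50.9% of them also rested on 1 read. These are descriptions of 1 table, and no test between sets of junctions was made.

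Among flagged junctions, the median number of reads was higher in shorter classes of length, except at the very short end, where the 18 members under 65 bases had a median of 7.5 reads and 27.8% of them had 1 read. The members had a median of 82 reads, with quartiles at 15 and 293 and a range of 1 to 72497. The 149220 longer flagged junctions had a median of 24, with quartiles at 5 and 108. Within the members the median was 113.5 reads up to 70 bases (those 18 included), 102 from 71 to 80, 82 from 81 to 90 and 69 from 91 to 100. It went on down beyond the limit, to 67 reads up to 120 bases, 48 between 200 and 300 bases and 15 in junctions of 20004 bases or more. The quartile ranges of all of these classes overlapped widely, so length separates medians and not single junctions. The members took 11.5% of all flagged reads. They made up 15 of the 100 flagged junctions with the most reads and 127 of the 1000 with the most. At the other end, 460 members had 1 read, and 614 had at least 1000.

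**Figure D2:**
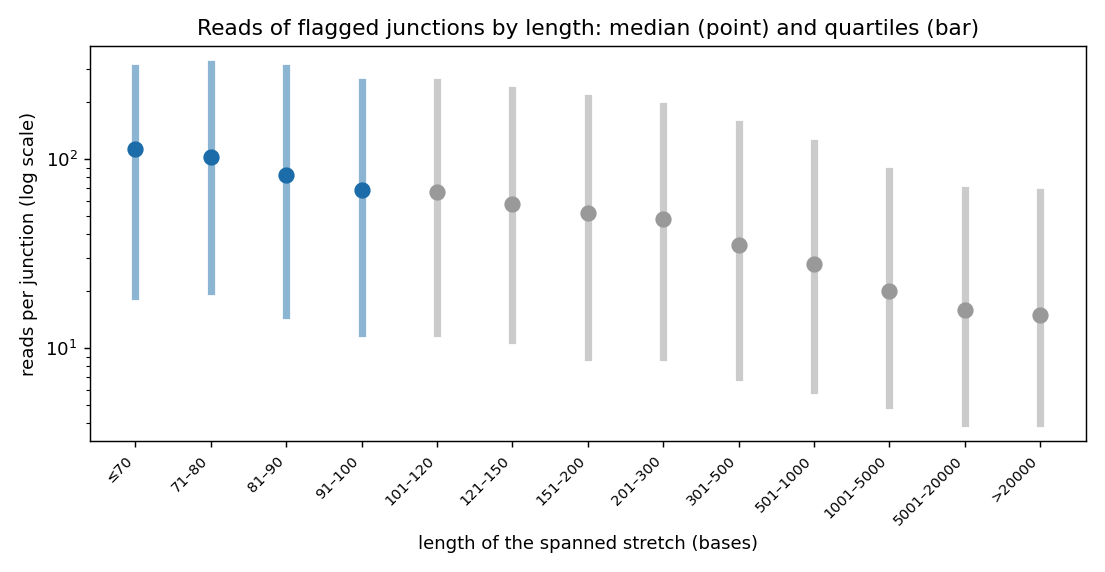
Reads per flagged junction (vertical axis, log scale) by length of the spanned stretch in bases (horizontal axis), with the median as a point and the quartiles as a bar; the members are in blue. The medians go down from 113.5 reads at 70 bases or fewer to 15 at 20004 bases or more.

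The reads of the members were concentrated. The 10 members with the most reads held 8.52% of all 3038693 member reads, and the 100 with the most held 24.9%. The top member, on the minus strand of chromosome 5 at 143667156 to 143667242 of build mm9, spans 87 bases and had 72497 reads, 37207 by the first read number and 35290 by the second. It had more than 2 times the reads of the next, on the plus strand of chromosome 10 at 79354358 to 79354447 (90 bases), which had 19894 and 12222. The top member was the higher of the pair by both read numbers. Over all flagged junctions with at least 20 reads, the first number held 55.3% of the reads, so an even count is already low in the first number.

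Of the 12 deepest members outside chromosome 18, 3 lay close together on the plus strand of chromosome 10. The first, at 80642197 to 80642288 (92 bases), had 12155 and 7217 reads by the first and second number. The next, at 80642542 to 80642626 (85 bases), had 13821 and 12831. The last, at 80644156 to 80644237 (82 bases), had 9156 and 6849. Their shares in the first number were 62.7%, 51.9% and 57.2%, above, below and above 55.3%. Other members of the 12 had more reads in the second number. On the minus strand of chromosome 11, the junction at 51420089 to 51420168 (80 bases) had 8784 and 13818 reads, and the one at 5607559 to 5607626 (68 bases) had 3448 and 12773. On the plus strand of chromosome 2, the junction at 34627667 to 34627748 (82 bases) had 6491 and 15567 reads, while the one at 174170631 to 174170728 (98 bases) had 8139 and 5324, or 60.5% in the first. On the plus strand of chromosome 15, the junction at 76734881 to 76734968 (88 bases) had 4949 and 8560. The remaining 2, both on the minus strand, had 8572 and 5913 reads on chromosome 9 at 78326666 to 78326764 (99 bases), and 8193 and 6069 on chromosome 7 at 133941063 to 133941157 (95 bases), or 59.2% and 57.4% in the first. The deepest junctions thus lay on both sides of 55.3%, with 6 above and 6 below.

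The shortest members were mostly thin. The 2 shortest span 33 bases each and had 5 reads (chromosome 11, 120624305 to 120624337) and 1 read (chromosome 8, 73872801 to 73872833). On the minus strand of chromosome 1, a member of 51 bases at 90162854 to 90162904 had 307 reads, 201 and 106 by the 2 numbers, and it is also 1 of the 23 members with C of 0. Next in length were members of 53 bases with 9 reads and of 54 bases with 1 read, both on chromosome 2, and of 56 bases with 75 reads on chromosome 11. Some members near the short end were nonetheless deep. A member of 57 bases on the minus strand of chromosome 8, at 87417584 to 87417640, had 1089 reads, 443 and 646. A member of 63 bases on chromosome 15, at 76425041 to 76425103, had 146 and 63 reads, and a member of 65 bases on chromosome 5, at 115688079 to 115688143, had 1209 and 1466. Both read numbers were thus well above 0 in each of these 4 deep short junctions.

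Members differed in how their reads split between the first and the second number. Of the 6850 members with at least 20 reads, the first number held a median of 56.8% of the reads, and the central 90% of members lay between 40.0% and 72.9%. Each split was tested against 55.3%, the share over all flagged junctions given above, by a two-sided exact binomial test with Benjamini-Hochberg adjustment over all 87045 such junctions. By that test 2197 members (32.1%) were unequal, against 30.3% of all junctions tested, so the share was near the background. The first number was above its expected share in 1241 members and below it in 956, beside 17.6% and 12.7% of all junctions tested. Set against the median share of the flagged junctions, 57.1%, those counts turned to 896 and 1261, beside 13.1% and 16.1% of all junctions tested, so the balance of directions rests on the reference chosen. With Bonferroni adjustment 637 members (9.30%) were unequal, beside 8.3% of all. With a minimum of 100 reads 1974 of 4399 members (44.9%) were, beside 46.9% of all. The test compares the reads behind 2 numbers and not conditions, and reads without molecular identifiers are not independent molecules, so its error is counting error only.

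The share called was larger at greater depth, and in each of 6 classes of depth it was lower in members than in longer flagged junctions. It was 10.5% in members and 13.1% in the others from 20 to under 50 reads, 25% and 30.8% from 100 to under 200, 52.3% and 57.8% from 500 to under 1000, and 68.7% and 74.7% at 1000 reads or more. The spread was lower too: at 1000 reads or more the first number's share had an SD of 8.55 percentage points over 614 members and 10.2 over 4068 longer junctions. Over all depths together it was 32.1% in members, which were deeper, and 30.1% in the others. These differences were not tested, because junctions of 1 gene share their molecules.

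**Figure D3:**
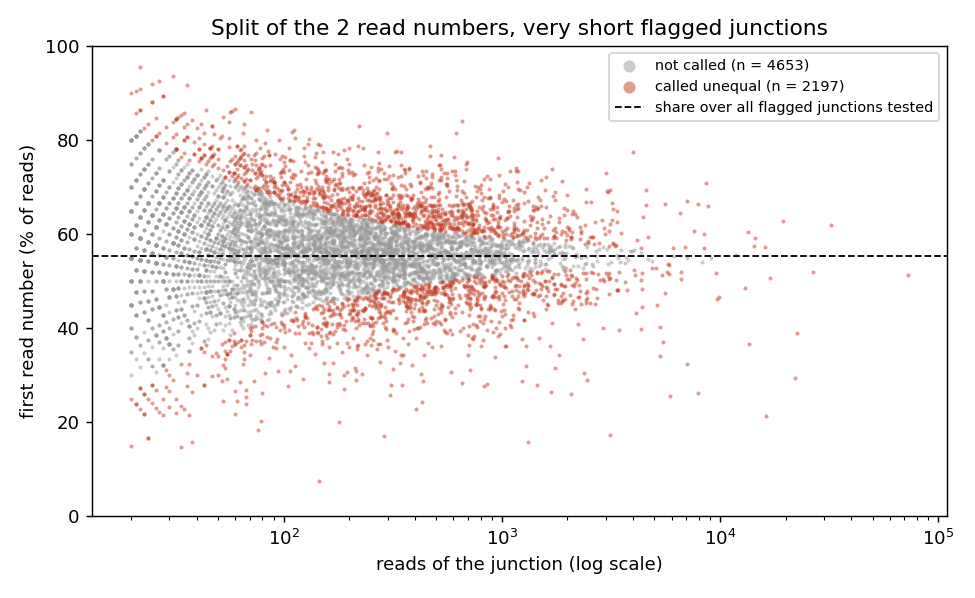
Share of a member's reads that the first read number holds (vertical axis, %) against its reads (horizontal axis, log scale), 1 point per member with at least 20 reads, red where called unequal by the exact binomial test; the dashed line is 55.3%. Called members lie on both sides of the line at all depths.

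Of the 6850 members with at least 20 reads, the first number held over 80% in 74 and under 30% in 80. Such counts are not given for longer flagged junctions, so these extremes are not shown to be particular to the members. The share was more widely spread in the longer junctions with at least 20 reads. Its SD was 11.9 percentage points over 80195 of them and 10.1 over the members. Among members with at least 100 reads, the lowest share was on the minus strand of chromosome 2 at 26244586 to 26244668 (83 bases), with 11 and 135 reads, or 7.53% in the first number. A member on the plus strand of chromosome 10 at 75356430 to 75356514 (85 bases) had 206 and 1106 reads, and one on the minus strand of chromosome 16 at 96348948 to 96349038 (91 bases) had 541 and 2576. A member of chromosome 4 at 140383921 to 140384005 (85 bases) had 49 and 239 reads. All 4 had far more reads in the second number.

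At the opposite end, a member on the minus strand of chromosome 8 at 73419407 to 73419498 (92 bases) had 554 and 105 reads, or 84.1% in the first number. A second member of that strand, at 73288539 to 73288617 (79 bases), had 184 and 38. The next were on chromosome 4 at 118060261 to 118060347 (87 bases), with 92 and 20 reads, and on chromosome 1 at 55053773 to 55053855 (83 bases), with 89 and 20. Each of these 8 members passed the exact binomial test, and they were picked by their share, so the test adds nothing to the choice.

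The members were spread unevenly over the chromosomes. They were 10.2% of the flagged junctions of chromosome 17 (823 of 8035), 8.96% of those of chromosome 7 (1069 of 11931), 8.45% on chromosome 19 and 8.38% on chromosome 8. At the low end they were 2.86% on chromosome 1 (270 of 9429) and 2.87% on chromosome 13 (138 of 4812). The median member had 160 reads on chromosome 15, 150 on chromosome 19, 127 on chromosome 8, 122 on chromosome 17 and 82 on chromosome 7. It had 33.5 reads on chromosome 1, 33 on chromosome 12 and 22.5 on chromosome 13. On chromosome 10 it had 104, where members were 5.96% of the flagged junctions, beside 5.98% over all. Medians of all flagged junctions were not computed by chromosome. By strand, 4588 members were on the plus strand and 4900 on the minus strand, a plus share of 48.4% (95% Wilson interval 47.4% to 49.4%). The interval treats junctions as independent, although neighbouring members can lie in 1 gene, so it is too narrow. The plus share was 50.5% over longer flagged junctions and 49.2% over unflagged junctions of at most 100 bases, and no difference was tested. Chromosome 15 had 33.0% of its members on the plus strand, beside 43.4% to 56.3% on every other chromosome with members. The plus share of all its flagged junctions was not computed, so this is not shown to be particular to the members. Chromosome 15 also holds 2 of the 3 longest chains of members, both on the minus strand, with 12 and 11 of its 537 members.

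Members lay near each other. Joined where no more than 300 bases lay between neighbours on 1 strand, 3176 of the 9488 members (33.5%) fell into 1291 chains of 2 or more, and 54 chains held 5 or more. When a flagged junction was followed within 300 bases by another, the next was a member in 21.0% of 7959 cases after a member, and in 5.94% of 104920 cases after a longer junction. The stretch between neighbouring members, which is an exon if both are introns of 1 transcript, had a median of 117 bases (quartiles 85 and 153) over 1778 pairs, beside 121 over all 112879 flagged pairs at that distance. It was a multiple of 3 in 38.6% of the member pairs and 39.3% of all pairs. Pairs were not matched for depth: the median was 82 reads over members and 26 over all flagged junctions. Neighbouring members had reads within 2-fold of each other in 63.2% of pairs, against 52.1% of all flagged pairs. Their shares in the first read number had a correlation of 0.28 over 914 pairs with at least 100 reads on both sides (0.25 over 25355 flagged pairs), a description in which neighbours share genes and molecules.

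The longest chain held 12 members on the minus strand of chromosome 15, between 76283809 and 76286301. Their spans were 71 to 93 bases and the stretches between them 70 to 289 bases. In the direction of transcription the reads were 398, 433, 520, 434, 425, 559, 682, 1471, 1587, 1168, 1507 and 678. They lay between 398 and 682 over the first 7 members, between 1168 and 1587 over the next 4, and were back at 678 in the last. The third member was the most uneven, with 388 and 132 reads in the first and second number, or 74.6% (exact binomial, adjusted p = 3.65e-18), while its neighbours had 56.1% and 55.5%. In the ninth the second number was ahead, with 699 and 888 reads (44.0% in the first). By the same test 4 of the 12 were unequal. Among all members of like depth the share was 39.3% from 200 to under 500 reads, 52.3% from 500 to under 1000 and 68.7% from 1000 on. Among longer flagged junctions it was 44.3%, 57.8% and 74.7% in the same order. The differences were not tested.

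A chain of 11 on the minus strand of chromosome 14, between 31952390 and 31954718, had 157 to 1224 reads. Its second member had 278 and 456 reads, or 37.9% in the first number, and the 2 after it had 192 and 110, and 203 and 116, near 63.6% each. By the exact binomial test 7 of its 11 members were unequal, in both directions. Among longer flagged junctions the share was 30.8% from 100 to under 200 reads and 44.3% from 200 to under 500. It was 57.8% from 500 to under 1000 and 74.7% from 1000 reads on, and the range of the chain covers all of these classes. Among all members it was 25%, 39.3%, 52.3% and 68.7% in the same order. A further chain of 11 on the minus strand of chromosome 15, between 76426363 and 76428405, had 180 to 572 reads over spans of 66 to 95 bases. Of its 11 members 4 were unequal, beside 25% to 52.3% of all members and 30.8% to 57.8% of longer flagged junctions in the classes of that depth.

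**Figure D4:**
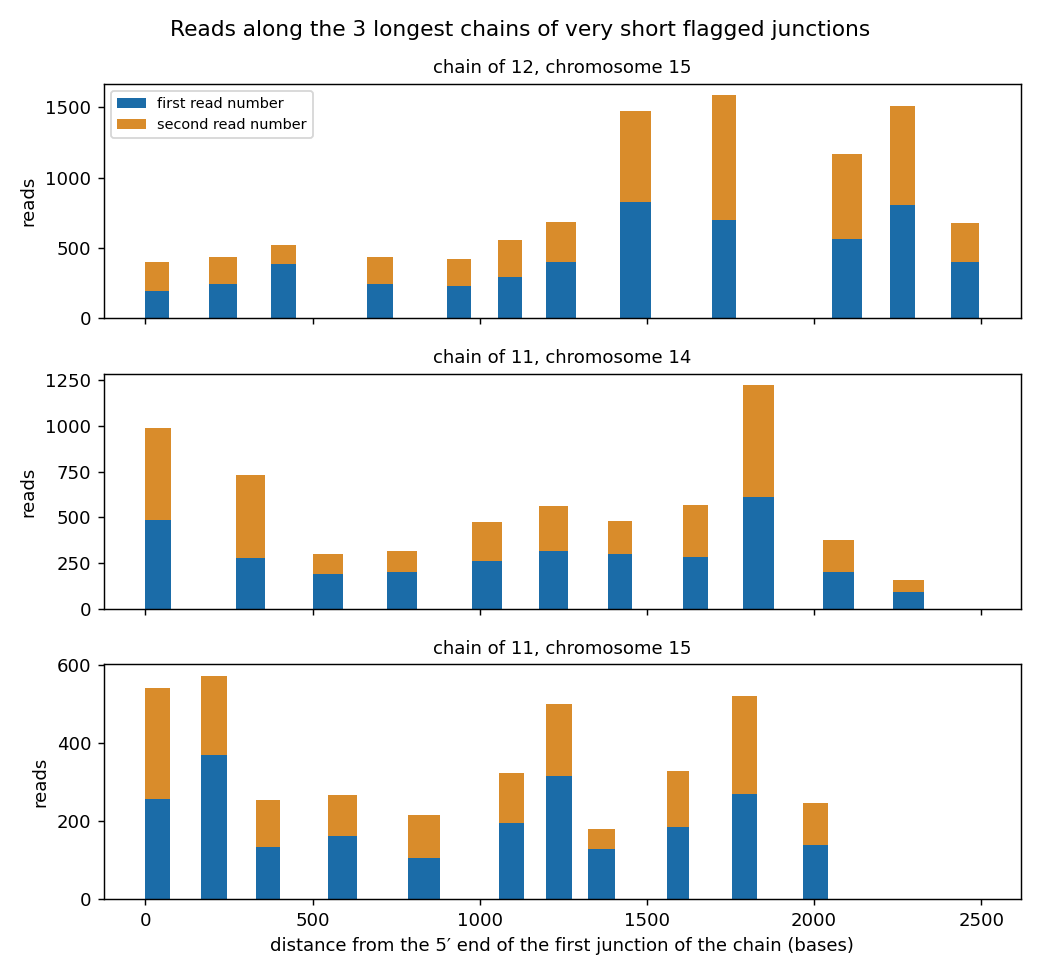
Reads (vertical axis) of each member along the 3 longest chains, as stacked bars of the first and second read number, against the distance in bases from the first junction in the direction of transcription (horizontal axis). In the chain of 12 the reads are 398 to 682 over the first 7 members and 1168 to 1587 over the next 4.

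Few members had a flagged rival at their ends. Of the 9488 members, 710 (7.48%) shared at least 1 end with another flagged junction, 397 the donor and 322 the acceptor, so that some members are in both counts. The share was 11.4% for flagged junctions of the next 100 bases in length and 16.6% for all longer ones. With unflagged partners included, 3477 members (36.6%) shared an end, most of these partners being thin: with partners of at least 10 reads the count was 818. Longer flagged junctions with both ends outside a member, as when it is skipped together with its neighbouring exons, enclosed 100 members (1.05%). In those, the member had a median of 23.5 reads and the deepest enclosing junction 4.5. The enclosing junction had more reads than the member in 26 of the 100.

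Where a flagged rival existed, the member could be the major or the minor form. At shared donors with at least 20 reads the member held over 90% of the reads in 139 of 350 cases, 10% to 90% in 122 and under 10% in 89. At shared acceptors the counts were 120, 81 and 81 of 282. These cases are members and not distinct ends: where both rivals were members, the end was counted for each of them. Such an end with no further rival gives complementary shares, so a major and a minor form are fixed in advance unless the shares are equal. Both forms were members in 27 of the 30 same-donor pairs that differed by 3 bases. How far this shapes the counts was not tested. Among members that held 10% to 90% of a shared end, the one with the most reads of its own outside chromosome 18 was on the minus strand of chromosome 6 at 87795552 to 87795649 (98 bases). It had 1330 reads, against 812 for a form with the same acceptor and a donor 21 bases further away. It took 62.1% of the reads of that acceptor (95% Wilson interval 60% to 64.1%), 62.3% by the first number and 61.9% by the second. On chromosome 17, at 33686331 to 33686424 (94 bases), a member held 81.9% (79.8% to 83.8%) of 1433 reads beside a form 4 bases longer with the same donor, and the shares by number were 83.5% and 80.4%. On chromosome 4, at 122973080 to 122973172 (93 bases), a member held 73.3% (71.0% to 75.4%) of 1535 reads, with 70.3% and 77.3% by the 2 numbers; its main rival spans 608 bases and ends at the same acceptor. The choice of form was thus similar by both read numbers in the first 2 of these and further apart in the last.

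Rivals at the same donor often differed by 3 bases. Of 108 pairs of a member and a flagged partner with the same donor and lengths up to 30 bases apart, 30 differed by 3 bases, 12 by 4 and 5 by 5, and none by 1 or 6. With the same acceptor there were 40 such pairs, of which 1 differed by 3 bases and 4 by 4. Longer flagged junctions had this pattern as well, with 490 of 1105 same-donor pairs at 3 bases (44.3%, against 27.8% in pairs with a member) and 16 of 573 same-acceptor pairs. Among same-acceptor pairs a difference of 4 bases led in longer junctions, with 59 pairs (10.3%), and was tied with 21 bases in pairs with a member, at 4 pairs each. Steps of 3 bases between acceptors that share a donor were thus frequent in both sets of junctions. As background, acceptors 3 bases apart are the known arrangement of tandem acceptors, in which 2 copies of the acceptor's closing bases follow each other and 1 codon is kept or lost.

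**Figure D5:**
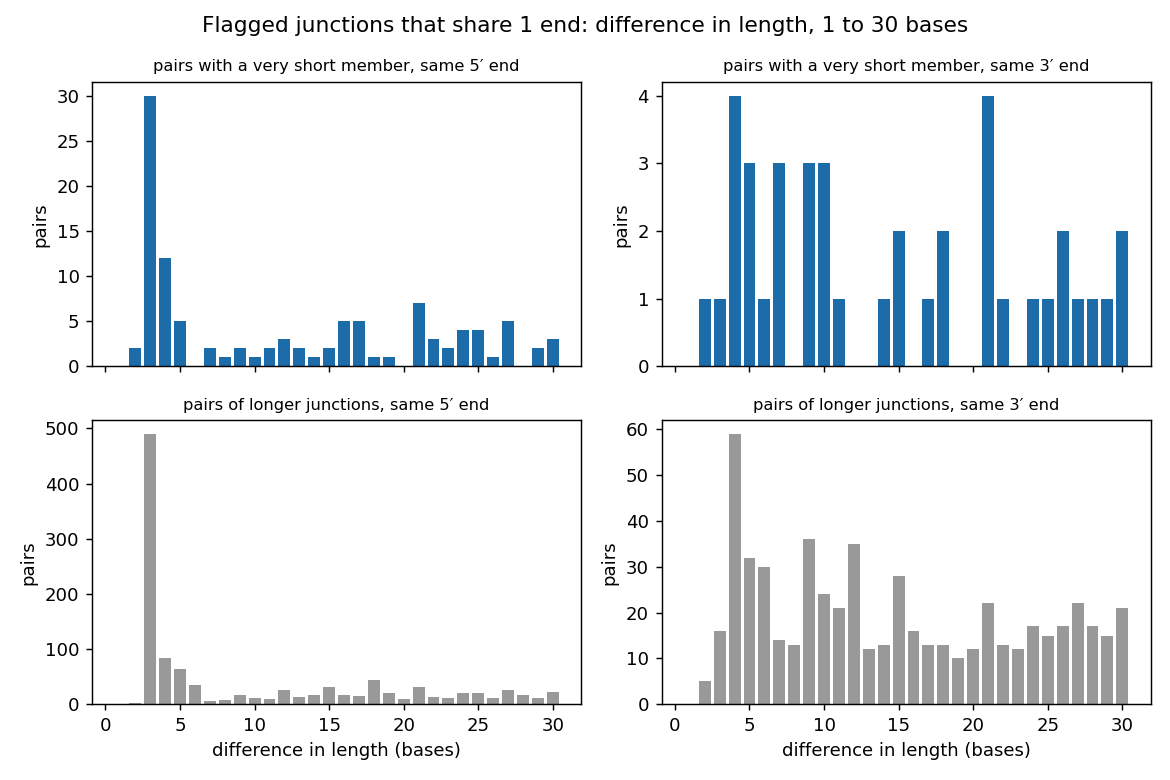
Number of pairs of flagged junctions (vertical axis) by the difference of their lengths in bases (horizontal axis), for pairs that share the 5′ end (left) or the 3′ end (right), with a very short member (top) or of longer junctions only (bottom). Differences of 3 bases lead on the left in both rows, with 30 and 490 pairs, and differences of 4 bases are most frequent or tied on the right.

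In the 26 pairs at 3 bases with at least 20 reads, the forms led about equally often: the shorter had more reads in 12 and the longer in 14, and the shorter held a median of 48.9%. The 6 pairs given here are the deepest with at least 20 reads in each form, a choice made after the values were seen. On the plus strand of chromosome 17, from 35279785, the forms of 83 and 86 bases had 1069 and 1258 reads, so that the shorter held 45.9% (95% Wilson interval 43.9% to 48.0%), 47.7% by the first number and 44.1% by the second. On chromosome 8, at 108412419 to 108412495, the form of 77 bases had 580 reads and that of 80 bases 712. On chromosome 7, from 26075985, the forms of 86 and 89 bases had 441 and 459 reads, a share of 49.0% (45.7% to 52.3%). These 3 pairs were near balance.

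The other 3 were not balanced. On the minus strand of chromosome 10, at 80951104 to 80951172, the form of 69 bases had 896 reads and that of 72 bases 286, a share of 75.8% (73.3% to 78.2%) that was 75.7% by the first and 75.9% by the second number. On chromosome 2, at 24781969 to 24782064, the form of 96 bases had 809 reads and that of 99 bases 39. On chromosome 8, at 3641821 to 3641894, the form of 74 bases had 78 reads and that of 77 bases 462, so that the shorter held 14.4% (11.7% to 17.7%). In each of the 6 pairs the share by the first and by the second number differed by under 4 percentage points.

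The contig table, on the same build, gave a readout of the bases inside the spans. Contigs are stretches covered by reads, and the shortest gap between 2 contigs of 1 strand was 11 bases, so the table can show gaps as short as a member. Contigs ended exactly where flagged junctions begin at 26854 junctions and 1 base earlier at 3, so the tables share their coordinates. Of the 9488 members, 5944 (62.6%) lay wholly in contigs of their strand and 659 (6.95%) held no contig base. The span was left bare on both sides exactly, with contigs that ended at its start and began at its end, in 297 members. The share wholly covered was 76.2% up to 80 bases and 58.0% above, 48.6% in the next 100 bases of length and 1.69% over 1000 bases.

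Covered spans were deeper junctions. Wholly covered were 23.7% of members with 1 to 9 reads, 53.7% from 10 to under 100, 84.1% from 100 to under 1000 and 95.3% (585 of 614) at 1000 or more. From 100 to under 1000 reads the share was 69.3% in flagged junctions of the next 100 bases and 51.1% between 200 and 500 bases, so the order by length was seen within a class of reads. All 12 of the deepest members outside chromosome 18 lay wholly in contigs. A covered member lay in a contig with a median signal level of 12 (quartiles 5.28 and 23.8, in the authors' unit) and a median length of 1571 bases, and 1 contig could hold up to 14 of them. The level is 1 number for a whole contig and does not give the depth inside the span, so how many reads keep the span was not tested.

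The 23 members with C of 0 had a median of 45 reads and 19 of them had both read numbers above 0. By strand, 3 of the 23 were on the plus strand, against 48.4% of the members with C of 1. On the minus strand of chromosome 17, at 25976837 to 25976929 (93 bases), the deepest had 533 and 413 reads. Next were members of chromosome 4 at 155607823 to 155607911 (89 bases), with 390 and 494 reads, and of chromosome 7 at 51809079 to 51809178 (100 bases), with 300 and 346. These were listed after their values were seen. By the exact binomial test the first of these 3 was not unequal (adjusted p = 0.682) and the other 2 were low in the first number (adjusted p = 7.89e-10 and 7.16e-05). Their splice site bases were not analysed here.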

How the data were processed

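Polyadenylated RNA of mouse ovary was measured in 2 libraries. The authors deposited 1 table of splice junctions and 1 of contigs on build mm9, per the accompanying notes, which name no replicate for either; for the aligner and the caller the sources used here give no name. Per the file, the deposited junction count is whole reads per junction, never below 1. The deposited significance score and the score made from the count were not used in any result. The deposited contig signal is a level whose scale is not stated. The authors deposited expected counts per gene on mm10 with GENCODE M4, used here only for the library totals and 8 ovary markers, a list added after other values were seen and matched by gene ID. Starts are printed 1-based, on mm9.

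From the junction names, the flags and both read numbers were read. The test, its reference and its adjustment stand in the report. It was tried on simulated read numbers in which unchanged junctions had a common split and counting error only. Its error rate under the wider spread of the real junctions was thus not tested. Junctions, gaps and contigs were compared by coordinates and strand, without resampling. The tools were pandas 2.3.3 and scipy 1.17.1 (exact test) with numpy 2.4.6 under Python 3.11.15, and matplotlib 3.10.9 for the plots. No genome or annotation of mm9 was used here, so members carry no gene names and no sequence, and mm9 was not joined to mm10. Named junctions are the 12 with the most reads outside chromosome 18 (where 1 deeper member was passed over), the shortest, the most uneven at 100 reads or more, the deepest with a shared end used at 10% to 90%, those at the length limit and the longest chains; the next 2 chains, the pairs at 3 bases and the members with C of 0 were added after the values were seen. Chromosome 18 was counted but is not listed singly. The members and lists were chosen with earlier results of these data known. The 2 libraries may be technical repeats. Whether the p-values of the split compare them is not known, because the read numbers are not tied to the libraries.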

Additional observations from a re-analysis of the deposited data

How the results depend on the processing

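With length limits of 80, 90 and 120 bases the members numbered 2427, 6515 and 13450, and their median reads were 104, 90 and 79. With at least 10 reads the median was 140; it was 47 by the first read number alone and 35 by the second. Longer flagged junctions up to 1000 bases had a median of 37 reads, still below the members' 82. Members called unequal by the exact binomial test numbered 2157 to 2212 with other reference splits or with a minimum of 10 or 50 reads, 1974 with a minimum of 100, 2189 without the 10 deepest members (added after seeing the data), and 637 with Bonferroni adjustment. As shares of the members tested, they were 28.4%, 38.9% and 44.9% with a minimum of 10, 50 and 100 reads. Beside them stood 25.1%, 38.9% and 46.9% of all flagged junctions tested. With the median share as reference it was 31.5% (29.2% of all), and with the split of all junctions 32.3% (30.4%). Without the 10 deepest members it was 32.0% (30.2%), and with Bonferroni adjustment 9.30% (8.3%). The share with a flagged rival was 4.48% with partners of at least 10 reads and 36.6% with partners flagged or not. The share wholly in contigs was 64.4% with either strand, 60.1% with contigs of a level of at least 1, and 62.6% with at least 90% of the span covered. A gap wholly inside a span cannot meet that last setting, as the shortest gap of 11 bases leaves under 90% of 100 bases covered. The plus-strand share was 47.7% with at least 10 reads. Leaving out a replicate and a paired analysis could not be run because the read numbers are not tied to the libraries, and splice site bases were not read because no genome of mm9 was used here. Depth limits the 460 members with 1 read, which can show no split.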

Other observations

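Lengths of the short junctions without the flag and with C of 0 had a period that the members lacked. Of the 38327 with C of 0, 22.6% had a length that is a multiple of 6, with peaks of 849 at 84 bases and 685 at 90, beside 448 at 85 and 398 at 91. In the members 15.2% of lengths were multiples of 6, with 401 at 84 bases and 418 at 85. Multiples of 3 made up 41.2% of those with C of 0 and 31.9% of the members. In the 5160 unflagged short junctions with C of 1, 18.3% of lengths were multiples of 6 and 36.8% multiples of 3.

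Unflagged rivals of the members often differed from them by 1 or 2 bases, steps absent or rare among flagged rivals. Steps of 3 and 4 bases at shared donors, and of 4 bases at shared acceptors, were among the most frequent with both kinds of partner. A member and an unflagged junction up to 30 bases apart shared the acceptor in 646 pairs. Of these, 123 differed by 4 bases, 122 by 1, 65 by 2 and 33 by 3. Of 1331 same-donor pairs, 133 differed by 1 base, 125 by 3, 115 by 4 and 83 by 2. Among the 108 same-donor and 40 same-acceptor pairs with a flagged partner no pair differed by 1 base. Those 2 bases apart numbered 2 and 1. Of the 9488 members, 1 had a junction with the same ends on the opposite strand.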
